A study of Mus musculus with 4 samples.

Results

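The 10 genes described here are ligands, receptors and extracellular modulators of bone morphogenetic protein (BMP) signalling, namely Bmp2, Bmp4, Bmp6, Bmp7, Bmpr1a, Bmpr1b, Grem1, Nog, Chrd and Bmper. They were chosen by name, and their Ensembl identifiers were found among the 28883 genes with an entry in at least 1 of the 4 bisulfite sequencing libraries. Their methylation was read in 38 gene entries (promoter, 5′ UTR, exon, intron or 3′ UTR), of which 37 had a level in all 4 libraries, and in 12 CpG islands and 10 CpG island shores that overlap the genes. The cells were C3H10T1/2, a mouse cell line with the properties of mesenchymal stem cells. They received a non-targeting control siRNA (NC) or siRNA against DNMT1 (siDNMT1), the enzyme that copies methylation onto the new DNA strand after replication. Transfection lasted 48 h, and the cells were then left uninduced or were kept for 3 days in osteoblast (OB) induction medium, a mixture of dexamethasone (0.001 μM), β-glycerophosphate (10 mM) and ascorbic acid (50 μM). Each of the 4 conditions (NC uninduced, siDNMT1 uninduced, NC OB and siDNMT1 OB) is 1 library of 1 cell line, so no difference between conditions has a replicate check. No test was made, since an additive fit of siRNA and induction would have to take the difference between the siDNMT1 effects before and after induction as its error. The labels do not name the siRNA sequence used for each library, and methylation levels cannot show how far DNMT1 itself was depleted.

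BMPs are secreted ligands of the transforming growth factor-beta family. They bring together type I and type II serine/threonine kinase receptors, which phosphorylate Smad1, Smad5 and Smad9, and these enter the nucleus with Smad4 and switch on targets such as the Id genes. Secreted antagonists such as noggin, chordin and gremlin bind the ligands and keep them from the receptors. In mesenchymal stem cells BMP signalling favours the osteoblast and chondrocyte lineages, and C3H10T1/2 cells are a common model of this response.

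The level of a region is the fraction of its CpG calls that were methylated, from 0 to 1, as deposited by the authors. Which CpG of a region were read is not given in the sources used here. The number of reads behind a level is unknown, and so is the coverage that a region needed to be listed. The libraries listed between 155398 regions (siDNMT1 OB) and 159705 regions (siDNMT1 uninduced). Over the 20152 promoters with a level in all 4 libraries, the median level was 0.191 in NC uninduced, 0.188 in siDNMT1 uninduced, 0.174 in NC OB and 0.164 in siDNMT1 OB cells. Differences below were taken between levels of the same region, and a region was counted as changed from a difference of 0.1.

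The 10 promoters covered nearly the whole range of methylation, from almost unmethylated to among the most methylated of all promoters. By the mean of the 4 libraries, the order from low to high was Bmpr1a (0.0188), Bmper (0.0301), Nog (0.0738), Bmp7 (0.0755), Bmp2 (0.362), Grem1 (0.438), Chrd (0.523), Bmpr1b (0.556), Bmp4 (0.613) and Bmp6 (0.805). Bmpr1a lay above 16.8% of all promoters and Bmp6 above 97.0% of them. The 4 lowest promoters reached at most 0.0915 in any library, and the 6 others stood at 0.336 or higher in every library. The order of neighbours crossed between libraries for Nog and Bmp7 and for Bmpr1b and Bmp4, where the first gene was the lower one in 3 of the 4 libraries. Bmp2 and Grem1, Grem1 and Chrd, and Chrd and Bmpr1b kept their order within each of the 4 libraries, although their ranges over the libraries overlapped. The median of the 10 mean promoter levels was 0.400, and that of all 20152 promoters was 0.180.

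**Figure D1:**
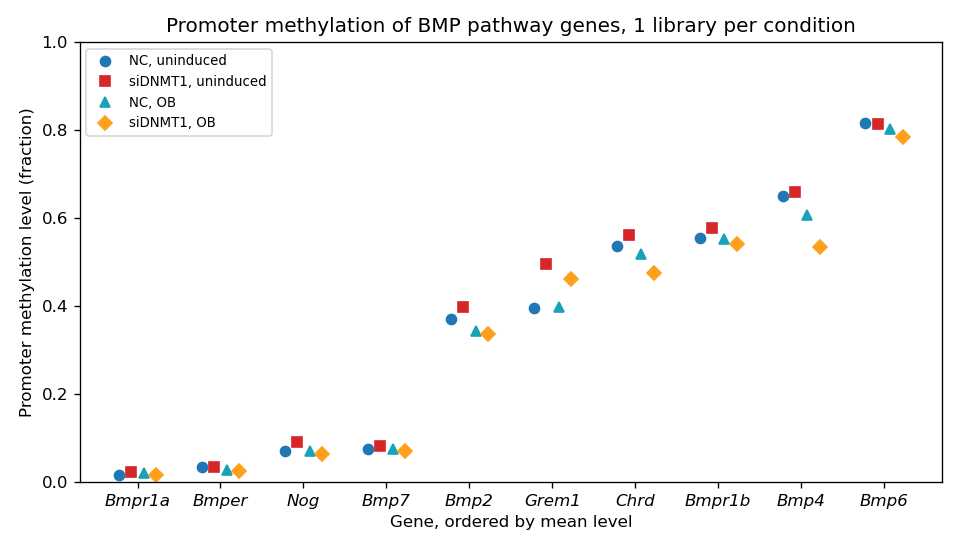
Methylation level (fraction, 0 to 1) of the promoter entry of each of the 10 genes, in order of mean level, with 1 point per library: NC uninduced (circle), siDNMT1 uninduced (square), NC OB (triangle) and siDNMT1 OB (diamond). Bmpr1a, Bmper, Nog and Bmp7 reach at most 0.0915, Bmp6 stays at or above 0.785, and the widest spreads between libraries are at Bmp4 (0.126) and Grem1 (0.1).

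Promoters rich in CpG dinucleotides are as a rule unmethylated, and promoters poor in CpG are often methylated. In GRCm38, the assembly of mm10, the 2 kb upstream of the GENCODE gene start held 33 CpG dinucleotides at Bmp4 and at Bmp6, 36 at Bmpr1a, 38 at Bmpr1b, 52 at Grem1, 59 at Bmp2, 68 at Bmper, 73 at Bmp7, 76 at Chrd and 107 at Nog, against a median of 38 over all promoters. Among all promoters the median level was 0.374 at the 6791 with at most 29 CpG. It was 0.208 at the 6737 with 30 to 49 CpG and 0.0448 at the 6600 with at least 50. Bmper, Bmp7 and Nog were CpG-rich with a low level, and Bmp4, Bmp6 and Bmpr1b had CpG counts near the median with high levels. In these 2 kb Bmpr1a had almost the same number of CpG as Bmpr1b, and its mean level was 0.0188, against 0.556 at Bmpr1b. The CpG islands over their gene starts, which lie mostly downstream, were less alike, with 197 CpG at Bmpr1a and 70 at Bmpr1b. GENCODE gives these genes 4 and 5 transcript starts, and the one behind each promoter entry is not known. Grem1, Bmp2 and Chrd also had at least 50 CpG, with levels between 0.336 and 0.561 in every library.

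The 200 bases just upstream of the gene start are shown for the highest promoter (Bmp6), for a low one (Bmper) and for the pair that varied most between libraries (Bmp4 and Grem1), 5′ to 3′ in the direction of transcription, with each CpG in capitals. They are Bmper (plus strand, chr9:23222876-23223075, with 21 CpG), Grem1 (minus strand, chr2:113758647-113758846, with 21 CpG), Bmp4 (minus strand, chr14:46390670-46390869, with 11 CpG) and Bmp6 (plus strand, chr13:38344907-38345106, with 7 CpG), all read from GRCm38.
Bmper upstream: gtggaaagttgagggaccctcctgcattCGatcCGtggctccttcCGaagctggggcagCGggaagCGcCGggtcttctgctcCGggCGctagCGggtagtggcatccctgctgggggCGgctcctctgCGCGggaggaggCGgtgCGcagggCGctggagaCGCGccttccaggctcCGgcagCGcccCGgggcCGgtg
Grem1 upstream: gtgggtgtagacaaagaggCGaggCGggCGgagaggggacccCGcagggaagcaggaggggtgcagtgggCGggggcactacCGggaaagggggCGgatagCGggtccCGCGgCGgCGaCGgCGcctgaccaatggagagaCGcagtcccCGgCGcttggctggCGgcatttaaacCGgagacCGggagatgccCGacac
Bmp4 upstream: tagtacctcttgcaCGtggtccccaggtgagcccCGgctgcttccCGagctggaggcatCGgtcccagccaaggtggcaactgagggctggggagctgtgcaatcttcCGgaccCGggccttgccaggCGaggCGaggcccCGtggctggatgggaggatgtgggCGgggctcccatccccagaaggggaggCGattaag
Bmp6 upstream: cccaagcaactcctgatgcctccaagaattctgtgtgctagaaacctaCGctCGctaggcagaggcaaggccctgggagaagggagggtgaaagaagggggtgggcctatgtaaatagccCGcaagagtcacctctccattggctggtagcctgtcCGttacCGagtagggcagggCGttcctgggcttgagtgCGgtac
Bmper and Grem1 had the same number of CpG in these stretches, with mean promoter levels of 0.0301 and 0.438.

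A CpG island lay over the gene start of 9 of the 10 genes, and 4 of these 9 islands, those of Bmp2, Bmpr1b, Grem1 and Bmp6, had a mean level of at least 0.2. Of the 8832 islands over the start of any gene, 18.2% reached that level, and their median was 0.0204. That wider set also takes in an island inside Bmp4 (mean 0.262), which lies over the start of another gene and is not among the 9. The Bmp6 island (chromosome 13, 38345063 to 38346755), which holds 169 CpG and takes in exon sequence of the gene, had a level of 0.792 in NC and 0.791 in siDNMT1 uninduced cells, and of 0.775 and 0.763 in OB cells. Its mean of 0.780 was above that of 98.4% of the islands over gene starts. The Bmp2 island (chromosome 2, 133551964 to 133553485), also with 169 CpG, stood at a mean of 0.416, the Bmpr1b island (chromosome 3, 142168884 to 142169575) at 0.419 and the Grem1 island (chromosome 2, 113757589 to 113758827) at 0.457. Low islands were those of Bmpr1a (0.0183), Bmper (0.0417), Chrd (0.0493), Nog (0.0690) and Bmp7 (0.143). Bmp4 was the exception, since its islands lie inside the gene and away from its start.

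Chrd stood apart in that its promoter and its start island differed most. The island (chromosome 16, 20732787 to 20733764) had a level between 0.0315 and 0.0631, while the promoter entry had levels between 0.475 and 0.561. The 2 kb upstream of the GENCODE start of Chrd include 340 bases of the island and overlap Thpo, the neighbouring thrombopoietin gene. GENCODE gives Chrd 5 transcript starts, and the one behind its promoter entry is not given in the sources used here. At the other 8 genes the mean level of the start island was closer to that of the promoter entry, with island minus promoter from -0.138 (Bmpr1b) to 0.0673 (Bmp7).

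**Figure D2:**
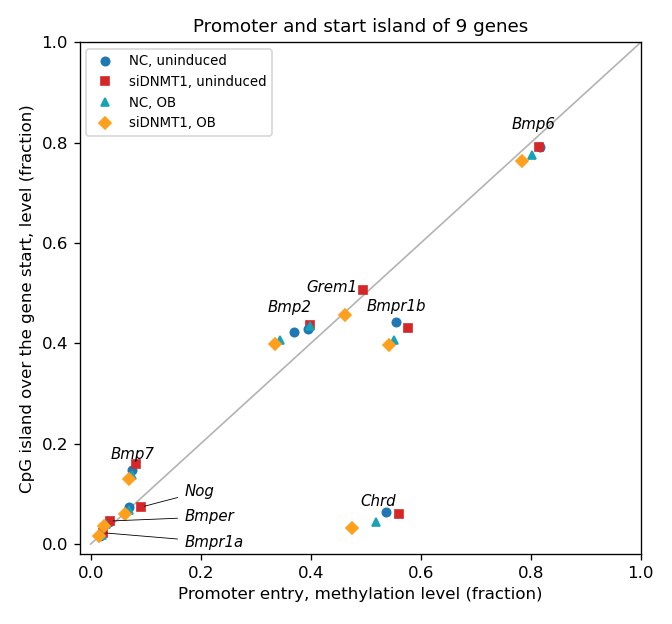
Methylation level of the promoter entry (horizontal axis, fraction) and of the CpG island over the gene start (vertical axis, fraction) for the 9 genes with such an island, with 1 point per library and the line of equal levels in grey. Chrd lies far below the line, with island levels of 0.0315 to 0.0631, and the other genes lie closer to it.

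Among the ligands, Bmp2 (chromosome 2, 133552159 to 133562885, plus strand), a potent inducer of bone formation, had a promoter of intermediate level. It stood at 0.370 in NC and 0.398 in siDNMT1 uninduced cells, and at 0.344 in NC and 0.336 in siDNMT1 OB cells. The order of the libraries was the same in its 5′ UTR entry (0.420, 0.432, 0.409 and 0.390, in that order of libraries) and in its exon entry (0.432, 0.445, 0.418 and 0.403). At Bmp2 the siDNMT1 uninduced library was thus the highest and the siDNMT1 OB library the lowest in promoter, 5′ UTR and exons, within a range of at most 0.0618. Its introns went another way, with 0.5 and 0.490 in uninduced and 0.468 and 0.490 in OB cells.

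Bmp6 (chromosome 13, 38345107 to 38500302, plus strand), a ligand also known as a regulator of iron metabolism, was methylated throughout. Its promoter level was 0.817 in NC and 0.815 in siDNMT1 uninduced cells, and 0.803 and 0.785 in OB cells. Its 5′ UTR entry lay between 0.817 and 0.848, its exons between 0.744 and 0.767 and its introns between 0.587 and 0.624. The siDNMT1 OB library was the lowest in all 4 of these entries. Bmp7 (chromosome 2, 172868012 to 172940321, minus strand), a ligand needed for kidney and eye development, showed the reverse profile, with levels that were higher away from its start. Its promoter stood at 0.0757 and 0.0821 in uninduced and 0.0743 and 0.0701 in OB cells, with NC first. Its 5′ UTR had a mean level of 0.109, its exons 0.233, its introns 0.448 and its 3′ UTR, the one 3′ UTR entry among the 10 genes, 0.523. The 3′ UTR of Bmp7 was lowest in the siDNMT1 OB library, at 0.503, and highest in NC uninduced cells, at 0.542.

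Of the type I receptors, Bmpr1a was almost free of methylation around its start and Bmpr1b was not. Bmpr1a lies on chromosome 14 (34410734 to 34503341) and Bmpr1b on chromosome 3 (141837136 to 142169425), both on the minus strand. The Bmpr1a promoter had levels of 0.0162 in NC and 0.0230 in siDNMT1 uninduced cells, and 0.0203 and 0.0157 in OB cells. Its introns stood at 0.154, 0.168 and 0.153 in the first 3 libraries, taken as NC uninduced, siDNMT1 uninduced and NC OB, and at 0.0865 in siDNMT1 OB cells. The siDNMT1 OB library was the lowest of the 4, with a difference from NC OB of -0.0667 that did not reach the threshold of change. The Bmpr1b promoter stood at 0.555 and 0.577 in uninduced and 0.552 and 0.542 in OB cells. GENCODE gives Bmpr1b 5 transcript starts spread over a long gene, and which of them defines its promoter entry is not given in the sources used here. The 5′ UTR and exon entries of each receptor have identical levels in every library, so they read the same cytosines and are a single measurement. The counts of entries below still keep them as separate entries. At Bmpr1b this shared level was highest in NC uninduced cells (0.456) and lowest in NC OB cells (0.404), with siDNMT1 cells in between at 0.439 and 0.413.

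Among the modulators, Nog (chromosome 11, 89300638 to 89302332, minus strand), which encodes the antagonist noggin, was low in every entry. Its promoter stood at 0.0703 in NC and 0.0915 in siDNMT1 uninduced cells, and at 0.0704 and 0.0631 in OB cells. A pair of its shores downstream of the island (chromosome 11, 89299374 to 89301373 and 89299532 to 89301532) overlap and carry the same 4 levels, 0.0556 and 0.0331 in uninduced and 0.0380 and 0.0989 in OB cells. In those shores the siDNMT1 OB library was above NC OB by 0.0609, the highest value of this difference among the 22 islands and shores. The 22 count the pair as separate shores. Bmper (chromosome 9, 23223076 to 23485200, plus strand), whose product binds BMPs and can block or favour their action, had a promoter between 0.0247 and 0.0347, exons between 0.0454 and 0.0566, and introns between 0.552 and 0.584.

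Chrd (chromosome 16, 20733127 to 20742384, plus strand) encodes chordin, an antagonist that proteases of the tolloid family cleave. Its promoter stood at 0.537 in NC and 0.561 in siDNMT1 uninduced cells, and at 0.518 and 0.475 in OB cells. Its exons (0.669 and 0.695, then 0.663 and 0.611) and introns (0.518 and 0.529, then 0.487 and 0.465) had the same order of libraries, highest in siDNMT1 uninduced and lowest in siDNMT1 OB cells. A 5′ UTR entry of Chrd was listed in the NC uninduced library alone, at 0, and it was left out of all comparisons.

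Grem1 (chromosome 2, 113746164 to 113758646, minus strand), which encodes gremlin 1, an antagonist of BMP2, BMP4 and BMP7, had the largest siDNMT1 difference of the 10 promoters before induction. The level was 0.395 in NC and 0.495 in siDNMT1 uninduced cells, and 0.398 in NC and 0.463 in siDNMT1 OB cells. Both siDNMT1 libraries were above both NC libraries, by 0.1 before and 0.0645 after induction. Among the 10 promoters this occurred at Grem1 alone. The first of these lies just past the threshold of change. When each library was centred on its median promoter, it was 0.104. The introns of Grem1 stood at 0.409 and 0.480 in uninduced and 0.414 and 0.432 in OB cells. The start island stood at 0.429 and 0.506, then at 0.435 and 0.457, and the shore inside the gene at 0.257 and 0.327, then at 0.275 and 0.271. In uninduced cells each of these neighbouring regions was thus higher with siDNMT1, by 0.0704 to 0.0774. The shore upstream of the gene differed less, by 0.0379 (0.423 in NC and 0.461 in siDNMT1), although it covers most of the 2 kb upstream. In OB cells the differences were 0.0178 in the introns, 0.0220 in the island and -0.00406 in the inner shore, while the shore upstream of the gene differed by 0.0647 (0.370 in NC and 0.435 in siDNMT1). These regions overlap in part and share cytosines, so they are not independent readings.

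Bmp4 (chromosome 14, 46383520 to 46390669, minus strand), a ligand that can commit C3H10T1/2 cells to the adipocyte lineage, had the widest spread between libraries. Its promoter level was 0.650 in NC and 0.660 in siDNMT1 uninduced cells, and 0.607 in NC and 0.534 in siDNMT1 OB cells. The island inside the gene (chromosome 14, 46387355 to 46389165, with 136 CpG), which lies 1504 to 3314 bases downstream of the gene start, stood at 0.261 in NC and 0.340 in siDNMT1 uninduced cells, and at 0.260 in NC and 0.188 in siDNMT1 OB cells. The NC libraries thus had nearly equal levels in this island, and the siDNMT1 libraries lay above them before induction and below them after it. siDNMT1 minus NC came to 0.0791 before induction and -0.0715 after it, a gap of -0.151 between these differences, and the difference from siDNMT1 uninduced to siDNMT1 OB cells was -0.152. The whole island is intronic in Bmp4, and it also holds the start of Gm15222, an antisense RNA gene on the plus strand (46387519 to 46389282). The island level is thus a level of both genes. The intron entry of Bmp4 followed the island, at 0.185 and 0.232 in uninduced and 0.17 and 0.141 in OB cells. Since the island lies in the introns, the entry and the island share cytosines and are not independent readings.

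The promoter and the 5′ UTR entry of Bmp4 had the same signs as the intronic island, but with small differences before induction. There siDNMT1 minus NC came to 0.00908 and then -0.0735 at the promoter, and to 0.00113 and then -0.0287 in the 5′ UTR. The exons and the other islands and shores did not share this pattern, with siDNMT1 below NC both times. The shore across the gene start (46389166 to 46391166) was highly methylated, at 0.844 and 0.818 in uninduced and 0.855 and 0.812 in OB cells. The 5′ UTR entry was higher in OB than in uninduced cells, at 0.723 and 0.724 before and 0.784 and 0.755 after induction. A small island in coding sequence (46385747 to 46386028) stayed between 0.0274 and 0.0301, and the shore beyond it (46383746 to 46385745) stood between 0.684 and 0.725. The shore that overlaps the small island (46385354 to 46387353) stayed between 0.0289 and 0.0305, and it holds 1 of the 4 transcript starts that GENCODE gives Bmp4. The start behind the promoter entry is not given in the sources used here. Bmp4 thus held a methylated gene start, an intermediate island that varied between libraries, an unmethylated island and shore with another transcript start, and a methylated 3′ part. The 200 bases with the most CpG in the island that varied (minus strand, chr14:46387434-46387633, with 22 CpG) are shown 5′ to 3′ in the direction of Bmp4 transcription, with each CpG in capitals.
Bmp4 island: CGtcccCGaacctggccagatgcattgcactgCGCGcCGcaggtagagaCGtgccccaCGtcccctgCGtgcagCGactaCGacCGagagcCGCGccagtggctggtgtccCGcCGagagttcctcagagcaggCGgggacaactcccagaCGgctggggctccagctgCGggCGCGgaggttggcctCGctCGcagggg

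**Figure D3:**
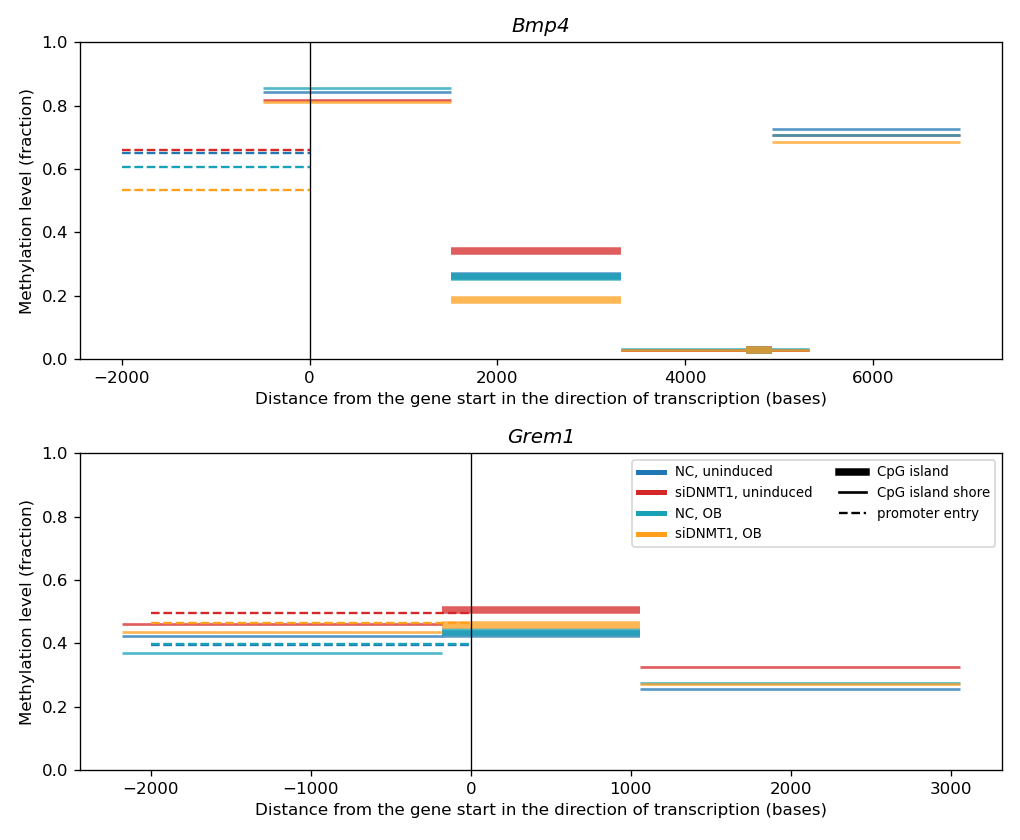
Methylation level (vertical axis, fraction) of the CpG islands (thick bars), shores (thin bars) and promoter entry (dashed) of Bmp4 and Grem1 against distance from the gene start in bases, positive downstream, with 1 colour per library. In the Bmp4 island the NC bars coincide (0.261 and 0.260), with siDNMT1 uninduced above (0.340) and siDNMT1 OB below (0.188), whereas at the Grem1 start island siDNMT1 uninduced is the highest bar (0.506).

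In uninduced cells, the comparison of siDNMT1 with NC sets 1 library with siRNA against DNMT1 beside 1 library with control siRNA. How far DNMT1 was depleted is not known from these levels. Of the 10 promoters 9 were higher with siDNMT1, all but Bmp6, whose difference was -0.00155. The median absolute difference over all promoters was 0.00805. Of the 9, Bmper (0.000928), Bmp7 (0.00638) and Bmpr1a (0.00673) lay below that value and the others above it. Over all promoters 46.7% were higher, with a median difference of -0.000713, against a median of 0.0151 for the 10. With each library centred on its median promoter, 10 of the 10 were higher, and 40.4% of all promoters were lower. Grem1 was counted as changed, and 1.48% of all promoters were. Of the 27 other gene entries 17 were higher and 10 lower (18 and 9 after centring), with 56.8% of all such entries lower, and 0 changed by 0.1, against 1.56% of all such entries. The largest differences among them were 0.0716 in the introns of Grem1 and 0.0466 in those of Bmp4. Of the 22 islands and shores 9 were higher and 13 lower (10 and 12 after centring), with 51.5% of all lower, and 0 changed, against 1.25% of all islands and shores.

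After OB induction the signs were mostly the other way. With siDNMT1, 9 of the 10 promoters were lower, all but Grem1, while 64.0% of all promoters were lower. The median difference was -0.00733 for the 10 and -0.00371 for all promoters. Centring the libraries turned this direction, since 6 of the 10 were then higher with siDNMT1 and the median was 0.00271, while the median level over all promoters was 0.174 in NC OB and 0.164 in siDNMT1 OB cells. Over all promoters the centred median was 0.00633, and 37.7% were lower. The lowest differences were -0.0735 at Bmp4 and -0.0424 at Chrd, and 0 of the 10 changed by 0.1, against 2.19% of all promoters. Of the 27 other gene entries 23 were lower, as were 67.8% of all such entries, with medians of -0.00632 and -0.00737, and 0 changed, against 2.15% of all. After centring on the median of each class, 14 of the 27 were lower. The introns of Bmpr1a (-0.0667) and the exons of Chrd (-0.0517) were the lowest of them. Among the 22 islands and shores 16 were lower (13 after centring), as were 62.9% of all, and 0 changed, against 1.71% of all. Differences were between -0.0715 at the Bmp4 island and 0.0609 at the overlapping Nog shores.

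Set side by side, 8 of the 10 promoters were higher with siDNMT1 before induction and lower after it, and 27.3% of all promoters were. The exceptions were Grem1, higher both times, and Bmp6, lower both times. After centring the count was 4 of the 10 (Bmp4, Bmp6, Bmpr1b and Chrd), and 16.8% of all promoters. The change of sign at Bmp2, Bmp7, Bmpr1a, Nog and Bmper thus depends on the centring. Centring takes off the same shift at every promoter, -0.00329 before and -0.01 after induction, also where the level is near 0. The median differences over all promoters as deposited were smaller, -0.000713 and -0.00371. For each of the 10 promoters the siDNMT1 difference in OB cells lay below that in uninduced cells, and the former minus the latter had a median of -0.0305 and ran from -0.00355 at Bmper to -0.0826 at Bmp4. After centring this held for 9 of the 10, all but Bmper (0.00422 before and 0.00742 after induction), with a median of -0.0238, and for 40.2% of all promoters. No promoter of the 10 had a gap of 0.1 or more, as 3.74% of all promoters did. Of all 14095 islands, 1.34% had a gap of at least 0.1, among them the Bmp4 island.

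OB and uninduced libraries were compared in NC cells and in siDNMT1 cells. The labels give 48 h of transfection for every library and a further 3 days for the OB libraries alone. They do not say whether the uninduced cells were kept as long. Induction thus cannot be told apart from time in culture after transfection, here or in the siDNMT1 differences before and after induction. In NC cells 7 of the 10 promoters were lower in the OB library, with a median of -0.00480, and 63.4% of all promoters were lower, with a median of -0.0032. Of the 10, 0 changed by 0.1, against 2.17% of all promoters. The largest difference was -0.0430 at Bmp4, followed by -0.0262 at Bmp2. After centring, 7 of the 10 were higher and the median was 0.0123, so the direction in NC cells depends on the centring. Over all promoters 24.9% were then lower, with a median of 0.0139. Centring takes off the same shift of the class median, -0.0171 here, at every promoter, also at those whose level is near 0. Of the 27 other gene entries 23 were lower (16 after centring), as were 61.1% of all, and 0 changed, against 2.12% of all. The extremes were the 5′ UTR of Bmp4, higher by 0.0604, and the shared 5′ UTR and exon entry of Bmpr1b, lower by 0.0523. Of the 22 islands and shores 16 were lower, as were 67.7% of all, and 0 changed, against 2.08% of all. After centring this direction turned, with 9 lower and 13 higher.

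In siDNMT1 cells 10 of the 10 promoters were lower in the OB library, and 73.1% of all promoters were. The median difference was -0.0316 for the 10 and -0.00654 for all promoters. After centring 7 of the 10 were lower, with a median of -0.00773, and 27.4% of all promoters were lower, with a median of 0.0173. Bmp4 changed, by -0.126 (-0.102 after centring), and 3.36% of all promoters did. Next were Chrd (-0.0860) and Bmp2 (-0.0618). Promoters of intermediate level vary more between libraries, and among the 9104 promoters with a mean level from 0.2 to 0.8 6.27% changed in this comparison and 2.58% in that of siDNMT1 with NC in uninduced cells. Of the 27 other entries 24 were lower (19 after centring), as were 71.7% of all, with a median of -0.0259 against -0.00866 over all such entries, and 0 changed, against 3.39% of all. Of the 22 islands and shores 19 were lower (13 after centring), as were 77% of all, and the Bmp4 island changed by -0.152, while 2.99% of all islands and shores changed. The median over the 22 was -0.0253.

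The siDNMT1 uninduced library enters 2 of these 4 comparisons with the same levels, and so does each other library, so the counts are not independent. By library, siDNMT1 uninduced was the highest of the 4 at 9 of the 10 promoters and at 31.4% of all promoters, and siDNMT1 OB was the lowest at 9 of the 10 and at 48.7% of all. After centring these were 6 of the 10 (11.2% of all) and 3 of the 10 (15.7% of all).

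**Figure D4:**
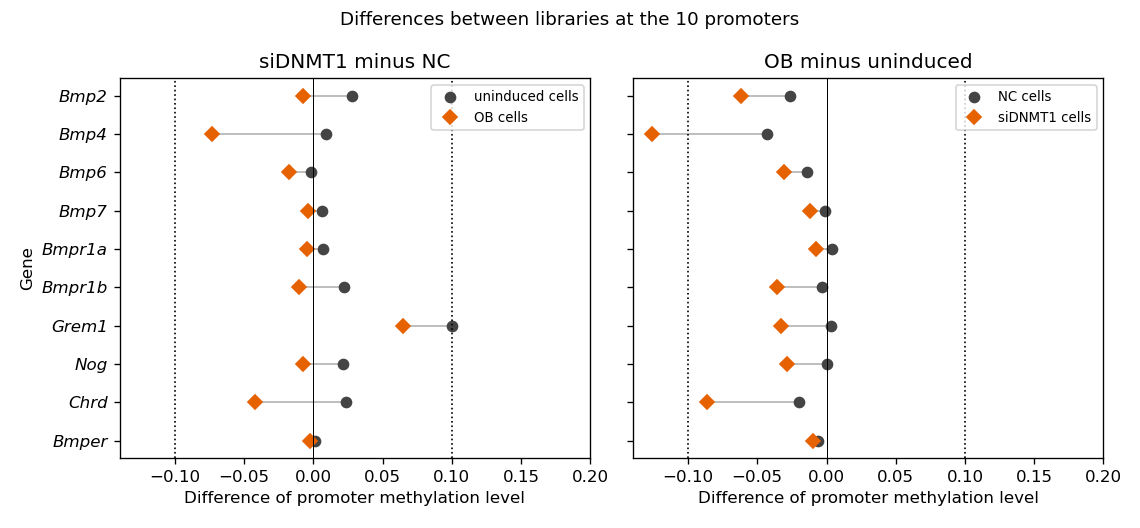
Difference of promoter methylation level for the 10 genes, siDNMT1 minus NC (left: circles uninduced, diamonds OB cells) and OB minus uninduced (right: circles NC, diamonds siDNMT1 cells), with dotted lines at the threshold of change of 0.1. On the left 9 of 10 circles lie above 0 and 9 of 10 diamonds below it (10 and 4 after centring), and on the right 10 of 10 diamonds lie below 0 (7 after centring), with Bmp4 at -0.126 past the line.

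The other genes of the pathway were taken from a list of 43 ligands, receptors, modulators, Smads and targets, of which 29 had a promoter level in all 4 libraries. Their median mean level was 0.0387, lower than the 0.400 of the 10 genes and the 0.180 of all promoters. Receptors, Smads and targets were low, with medians of 0.0165 over 5 receptors, 0.0221 over 6 Smads and 0.0217 over 6 targets. The 7 extracellular modulators had a median of 0.0483, from Nbl1 (0.0194) to Chrdl1 (0.645), and the 5 ligands had a median of 0.455. The list holds 14 modulators and 10 ligands, and the others had no promoter level in all 4 libraries. Acvrl1, a type I receptor of endothelial cells, was the one receptor with a high level, at 0.569. The ligands ranged from Gdf6 (0.293) to Gdf2 (0.603), and Sp7, the gene of the osteoblast transcription factor osterix, was the highest target, at 0.148.

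In the list 1 of the 29 promoters changed by 0.1, Chrdl1, which encodes a chordin-like antagonist and lies on the X chromosome, and it changed in each of the 4 comparisons. Of all promoters, between 1.48% and 3.36% changed in a comparison. The level of Chrdl1 was 0.711 in NC and 0.559 in siDNMT1 uninduced cells, and 0.592 in NC and 0.720 in siDNMT1 OB cells. The siDNMT1 difference was -0.152 before and 0.129 after induction, with the opposite order of signs to Bmp4. siDNMT1 was below NC at 19 of the 29 promoters before induction and at 15 of them after it, and at 53.2% and 64% of all promoters. Of the 29, 20 were lower in the OB library in NC cells and 22 in siDNMT1 cells, with medians of -0.00298 and -0.00473. Over all promoters 63.4% and 73.1% were lower, with medians of -0.0032 and -0.00654. These counts are of levels as deposited.

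By level in the 4 libraries, the promoter most like that of Grem1 among all promoters was Serpina11, which differed from it by at most 0.0191 in any library. It was followed by Gm15138 (at most 0.0311) and Fmr1 (at most 0.0347). The likeness rests on 4 values per gene.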

How the data were processed

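Reduced representation bisulfite sequencing of 4 C3H10T1/2 libraries was analysed, and conditions were taken from the sample labels. The protocol describes sonicated DNA treated with bisulfite. Per the labels, reads were called with CASAVA, filtered with Trimmomatic (version 0.36) and aligned to mm10 with Bismark (version 0.16.3). The authors deposited, for each region, a fraction of CpG methylation (methylated over all CpG calls). They define promoters as 2 kb upstream of the transcription start. The gene annotation, coverage minimum and weighting of cytosines are not given in the sources used here. No read counts accompany the fractions, so depth is unknown and no interval or count test could be computed.

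Entries were matched to genes by Ensembl identifier in GENCODE vM21 (GRCm38), and islands and shores were kept where they overlap a gene by at least 1 base. Counting island starts from 0 placed a CG at both ends of 14354 of 14354 islands in GRCm38, and positions are printed from 1. Of the 20152 promoters in all 4 libraries, 20128 had a position from which CpG were counted. Regions missing from any of the 4 libraries were left out of differences, which were counted from 0.1. All 10 genes are named, with their entries that changed or differed most. Other pathway genes were named where a promoter changed or was lowest or highest of its role. The genes, lists and rules were chosen with earlier results of these data known. Counting was tested on simulated data. Alternatives were other thresholds, centring on the median of the class, a minimum level of 0.05, a log2 scale, islands up to 2 kb upstream, and 5′ UTR entries. Python 3.11.15, pandas 2.3.3, numpy 2.4.6 and matplotlib 3.10.9 were used.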

Additional observations from a re-analysis of the deposited data

Results flagged for a closer look

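The CpG island inside Bmp4 had siDNMT1 differences of opposite sign in uninduced cells (0.0791) and in OB cells (-0.0715), a gap of -0.151 (-0.149 after centring each library on its median island). With 1 library per condition, this difference between uninduced and OB cells was not tested. Of the 59 entries, islands and shores of the 10 genes with a level in all 4 libraries, it was the one with opposite signs and a gap of at least 0.1, as 1.03% of all islands had.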

How the results depend on the processing

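No paired analysis was possible because the labels give no replicate numbers that pair samples and no result comes from a test. Each condition is 1 library, so none could be left out. The threshold moved the counts most. At 0.05, the gene entries that changed numbered 2 with siDNMT1 in uninduced cells, 4 with siDNMT1 in OB cells, 3 with OB induction in NC cells and 7 with OB induction in siDNMT1 cells, and the islands and shores numbered 3, 3, 0 and 4. These counts take the identical 5′ UTR and exon entries of Bmpr1b, and the identical pair of Nog shores, as separate regions. At 0.2 none of these counts was above 0, so Grem1 and Bmp4 were no longer counted. Centring on the median promoter moved the median OB difference of the 10 promoters to 0.0123 in NC cells, which turned its sign, and to -0.00773 in siDNMT1 cells. Over all promoters the centred medians were 0.0139 and 0.0173. Centring also turned the sign of the median siDNMT1 difference in OB cells, to 0.00271, and the count of promoters higher with siDNMT1 before and lower after induction went from 8 to 4, a setting added for this count after seeing the data. The 5′ UTR entry of Bmp4 differed by 0.0306 between siDNMT1 uninduced and siDNMT1 OB cells, against -0.126 in its promoter. A minimum level of 0.05, islands up to 2 kb upstream, regions with a level in the compared libraries alone and centring left every count of changed regions as it was. On a log2 scale the 4 medians kept their signs. A median counted as moved where it shifted by more than the median absolute difference over all promoters. Unknown depth limits all levels.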
